A study of Mus musculus with 12 samples.

Results

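A set of 10 nuclear genes that govern how many mitochondria a cell makes and how mitochondrial DNA is read and copied were followed across mammary tumors and benign mammary tissue. They are the coactivators Ppargc1a and Ppargc1b, the nuclear receptors Esrra and Esrrg, the nuclear respiratory factors Nrf1 and Gabpa, the mitochondrial transcription proteins Tfam, Tfb2m and Polrmt, and the mitochondrial DNA polymerase Polg. They were chosen by these roles and taken by symbol, and all 10 were found among the 16411 genes of the count table and passed the filter on low counts. RNA came from 6 tumors and 6 benign samples, all of females heterozygous for the MMTV-Neu-NDL-YD5 transgene on the FVB strain. The MMTV promoter of this transgene drives an activated Neu (the rodent HER2) in mammary epithelium, with 1 tyrosine site added back that couples to SHC and GRB2. Mice of both groups carried the transgene, so the benign samples, taken where no tumor could be seen, were not tissue of a wild-type mouse. Tumors and benign samples came from different mice, and the labels give no age and no treatment.

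PGC-1α and PGC-1β, the proteins of Ppargc1a and Ppargc1b, bind no DNA themselves but switch on target genes through transcription factors such as the estrogen-related receptors and the nuclear respiratory factors. Those factors act on nuclear genes of the respiratory chain and on genes whose products enter the mitochondrion, where TFAM, TFB2M and the RNA polymerase POLRMT start transcription and POLG replicates the genome. In muscle, brown fat and heart the program is known for its response to exercise, cold and energy demand.

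Total counts per sample lay between 5240853 and 8588567. Levels are given as CPM, counts scaled to library size, by edgeR's TMM method, and a gene was called when its adjusted p-value in edgeR's two-sided quasi-likelihood test over 13191 genes was under 0.1. Erbb2, the gene of HER2, lay between 44.8 and 73.7 CPM in benign tissue and between 1989 and 16630 CPM in tumors, in a single entry that does not separate transgene from mouse gene. The benign samples were not alike. The summed level of 20 skeletal muscle genes was 43.2 to 437 CPM in benign 1, 2 and 5, 41210 to 105100 CPM in benign 3, 4 and 6, and 6.26 to 181 CPM in tumors, with 1 of the 20 at 0 in all tumors. For the 6 brown fat genes the sums were 20.8 to 98.2 CPM in benign 1, 2 and 5, 95.6 to 2460 CPM in benign 3, 4 and 6, and 1.71 to 24.3 CPM in tumors. Ckm, the muscle creatine kinase, was at 0.185, 0.119 and 29.0 CPM in benign 1, 2 and 5 but at 5386, 3586 and 8572 CPM in benign 3, 4 and 6, and it did not pass 11.9 CPM in any tumor. Each member was therefore also compared with benign 1, 2 and 5 alone over 13604 genes, a set picked on these muscle transcripts and not a group of the labels. The 10 adipocyte genes summed to 10050 to 24490 CPM across the 6 benign samples and to 211 to 350 CPM in tumors, and the 8 epithelial genes to 976 to 2637 CPM and 2535 to 4124 CPM. Adipoq, the adipocyte hormone, was 796 to 1409 CPM in benign tissue and at most 6.92 CPM in tumors, while the luminal keratin Krt8 was 200 to 532 CPM and 454 to 968 CPM. Of the 8 epithelial genes, 5 were called higher in tumors and 3 lower. Those lower were Krt5, Krt14 and Krt19, with log2 fold changes of -4.73, -4.75 and -4.74. The summed level of 10 stromal, endothelial and immune markers was 2391 to 5083 CPM in benign tissue and 301 to 534 CPM in tumors. The part of these tissue differences in the results on the regulators was not tested, and in bulk RNA fewer cells of a type cannot be told apart from less RNA per cell.

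Ppargc1a, Esrrg and Gabpa rose in tumors, while Ppargc1b, Tfb2m, Polg and Polrmt fell and Esrra, Nrf1 and Tfam did not pass the test. The falls of Polrmt and Polg were the least stable, with calls lost in 16 and 5 of 19 other settings. Neither was called against benign 1, 2 and 5. Against all 6 benign samples, 3 of 10 members were called higher, beside 28.2% of all genes tested, and 4 of 10 lower, beside 34.8%, so that 7 of 10 were called in all, beside 63.0%. These shares are close to the background, and the members' median change on the log2 scale (-0.15) lay near that of all genes (-0.06). Against benign 1, 2 and 5, the same 3 members were higher (26.7% of genes were), 2 were lower (28.7%) and 5 of 10 were called (55.4%). Their median was then 0.06, beside 0.00095 for all genes.

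**Figure D1:**
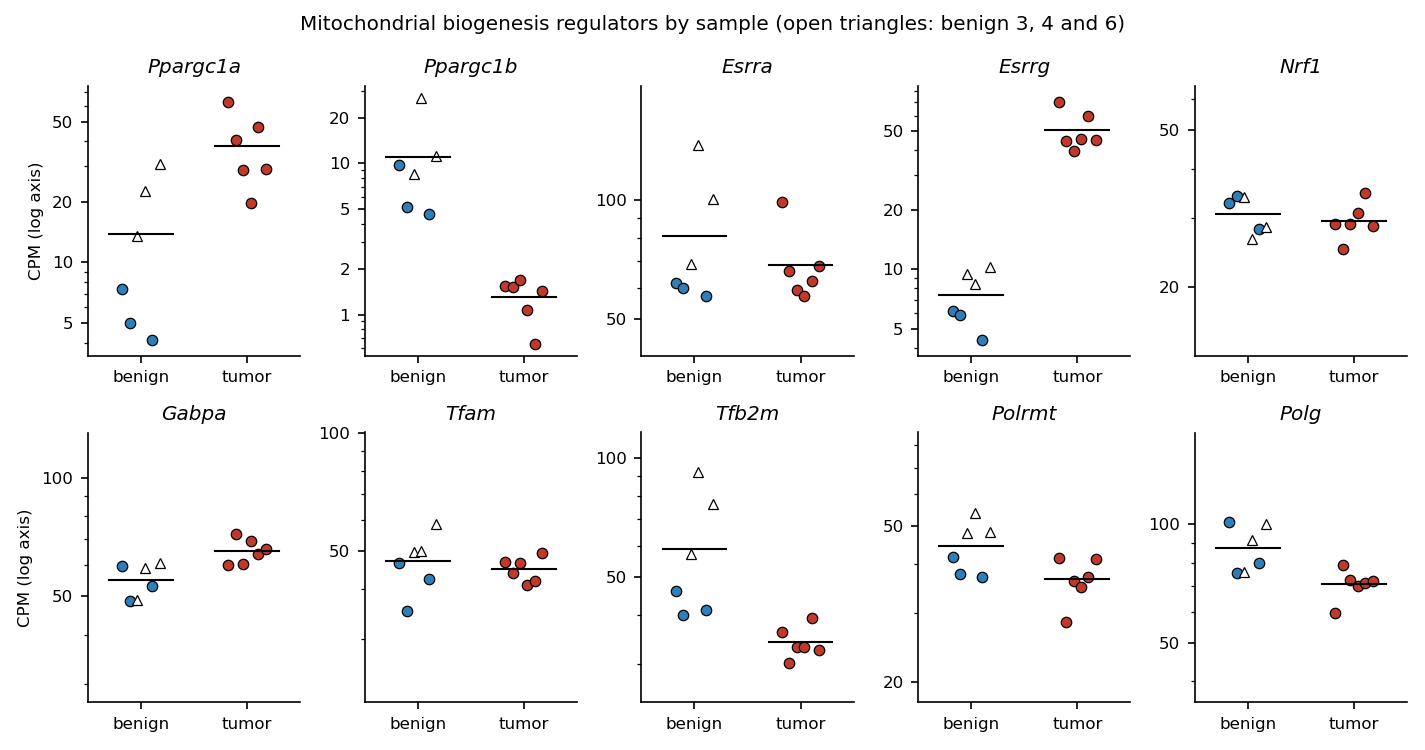
CPM of each regulator in every sample, on log axes that each span at least 4-fold, with filled circles for benign 1, 2 and 5 and for the 6 tumors, open triangles for benign 3, 4 and 6, and bars for group means. The tumor points of Esrrg lie above, and those of Ppargc1b and Tfb2m below, every benign point.

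Ppargc1a encodes PGC-1α, the coactivator first known from brown fat and muscle, and lies at chr5:51454250-51567726 on the minus strand (GRCm38). Its level was lowest at 4.12, median 10.4 and highest at 30.7 CPM in benign tissue, and lowest at 19.7, median 34.9 and highest at 62.7 CPM in tumors. The 3 highest benign values, 13.5, 22.6 and 30.7 CPM, were those of benign 3, 4 and 6, the samples rich in muscle transcripts, and 3 of 6 tumors lay above all of them. Tumors averaged 38.1 ± 15.5 CPM and benign tissue 13.9 ± 10.7 CPM (mean ± SD, n = 6 each), a log2 fold change of 1.46 (95% interval 0.43 to 2.50, adjusted p = 0.019 by edgeR). Benign 1, 2 and 5 held 7.41, 5.01 and 4.12 CPM, less than every tumor, and against them the log2 fold change was 2.84 (95% interval 1.95 to 3.73, adjusted p = 0.00027 by edgeR). The ratio of means was thus 2.74 with all benign samples and 6.90 with those 3.

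Ppargc1b, on chromosome 18, encodes PGC-1β, the related coactivator, and hosts the microRNA gene Mir378a in its body. It fell in every tumor. Benign tissue ranged from 4.62 to 27.1 CPM with a median of 9.13, and tumors from 0.639 to 1.69 CPM with a median of 1.47. In tumors these levels rest on only 5 to 14 counts per library, against 37 to 152 in benign tissue. Benign 4, which also had the highest Ucp1 of the series (1434 CPM), had the highest Ppargc1b. It was the highest sample for Esrra (138 CPM), Tfb2m (92.1 CPM) and Polrmt (53.8 CPM) as well. The log2 fold change of Ppargc1b was -3.05 (95% interval -4.02 to -2.07, adjusted p = 8.3e-05 by edgeR) against all benign samples. Against benign 1, 2 and 5 it was -2.24 (95% interval -3.04 to -1.43, adjusted p = 0.00066). In both comparisons each tumor was below each benign sample, as were 21.2% of all genes tested with 6 benign samples and 25.4% with 3.

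Since coactivators of unequal transcript length were compared, their ratio was taken per kb of the longest coding transcript in GENCODE M21. The ratio of Ppargc1a to Ppargc1b in CPM per kb was 0.427, 0.552, 0.901, 0.473, 0.504 and 1.55 in benign 1 to 6. The transcript forms in use are not known, so whether a ratio lies below or above 1 depends on the lengths assumed. In tumors 1 to 6 the ratio was 22.8, 15.2, 9.66, 10.3, 41.9 and 11.5. The groups were separated by a wide gap, also with benign 1, 2 and 5 alone (0.427 to 0.552). The mean log2 ratio was -0.61 ± 0.72 in benign tissue and 4.0 ± 0.82 in tumors, a difference of 4.61 (exact two-sided permutation test, p = 0.00216, the smallest that 924 regroupings can give, and 0.00216 after adjustment over the 2 ratios tested). Ppargc1b alone gave the same p-value in this test, so the test of the ratio adds nothing to that gene's fall.

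**Figure D2:**
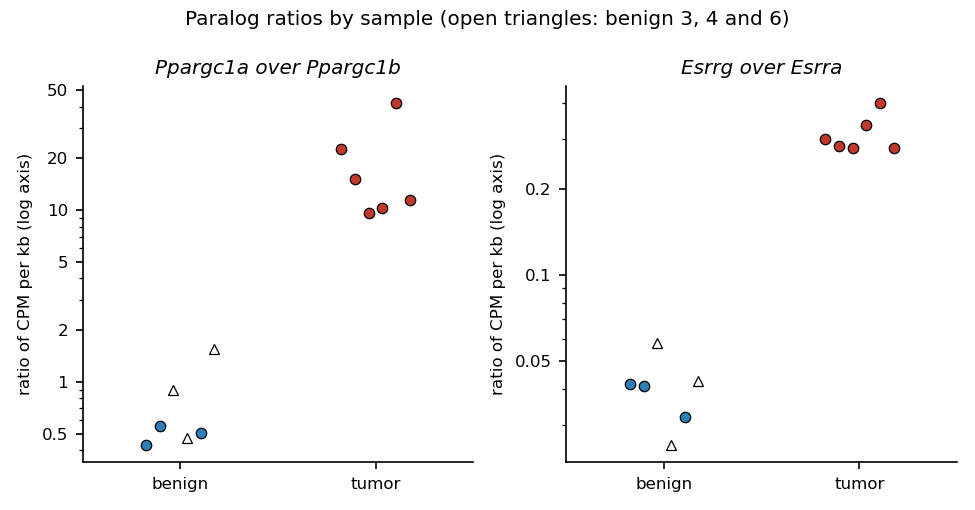
Ratio of the 2 coactivators (left) and of the 2 estrogen-related receptors (right) in CPM per kb in each sample, on log axes, with open triangles for benign 3, 4 and 6. The coactivator ratio is 0.427 to 1.55 in benign tissue and 9.66 to 41.9 in tumors, and the receptor ratio 0.0254 to 0.0577 and 0.277 to 0.399.

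Esrrg, the gene of ERRγ, an orphan nuclear receptor of oxidative tissues, lies at chr1:187608791-188214885 on the plus strand. It was the member with the smallest adjusted p-value. Benign levels were 6.11, 5.85, 9.5, 8.37, 4.37 and 10.3 CPM in benign 1 to 6, and tumor levels 70.5, 44.7, 39.6, 45.8, 59.8 and 45.1 CPM in tumors 1 to 6. Even the lowest tumor was above the highest benign sample several times over, and muscle-rich and muscle-poor benign samples differed little beside that gap. Tumors averaged 50.9 ± 11.8 CPM and benign tissue 7.42 ± 2.32 CPM (mean ± SD), a ratio of 6.87 and a log2 fold change of 2.78 (95% interval 2.29 to 3.28, adjusted p = 4.6e-07 by edgeR). It was 3.27 (95% interval 2.72 to 3.81, adjusted p = 4.2e-06) with benign 1, 2 and 5. Every tumor exceeded every benign sample, as in 14.7% of genes tested. With benign 1, 2 and 5 alone this held for Esrrg, Ppargc1a and Gabpa, beside 18.7% of genes.

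Esrra encodes ERRα, the receptor through which PGC-1 proteins drive much of the respiratory chain program, at chr19:6910977-6921813 on the minus strand, where it overlaps Trmt112 on the other strand. It was the member with the highest level per kb in both groups, at 36.1 ± 14.3 CPM per kb in benign tissue and 30.6 ± 6.83 in tumors. Benign 1, 2 and 5 were at 61.5, 59.7 and 57.1 CPM, and benign 3, 4 and 6 at 68.7, 138 and 101 CPM. Tumors lay between 57.0 and 98.7 CPM, within the benign range but for the lowest. The log2 fold change was -0.24 (95% interval -0.73 to 0.26, adjusted p = 0.40 by edgeR) and turned to 0.25 (95% interval -0.14 to 0.64, adjusted p = 0.27) against benign 1, 2 and 5, and neither passed the test. The ratio of Esrrg to Esrra in CPM per kb was 0.0254 to 0.0577 in benign tissue and 0.277 to 0.399 in tumors. The mean log2 ratio differed by 3.0 (exact two-sided permutation test, p = 0.00216). Both ratios, compared with benign 1, 2 and 5 (0.032 to 0.0415 for the receptors), gave p = 0.0238 in the exact test, the smallest that its 84 regroupings allow. Esrrg alone gave p = 0.00216 and 0.0238 in the same exact tests, as did Ppargc1b. The ratio tests therefore add nothing to the results of those 2 genes. Esrrb, the remaining receptor of the family, went the other way. It fell from 8.34 to 32.6 CPM in benign tissue to 0 to 0.768 CPM in tumors, with a log2 fold change of -5.69 (adjusted p = 1.5e-06 by edgeR).

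Nrf1 encodes nuclear respiratory factor 1, which binds a GC-rich palindrome in promoters of respiratory genes, and lies at chr6:30047988-30153458 on the plus strand. It was 26.5 to 34.0 CPM in benign tissue (median 30.6) and 25.0 to 34.7 CPM in tumors (median 28.9). The groups overlapped almost fully. The log2 fold change was -0.05 (95% interval -0.29 to 0.19, adjusted p = 0.70 by edgeR), and -0.06 (95% interval -0.35 to 0.23, adjusted p = 0.74) against benign 1, 2 and 5.

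Gabpa encodes the DNA-binding subunit of GABP, also called nuclear respiratory factor 2, at chr16:84834925-84863779 on the plus strand, head to head with Atp5j. Benign tissue ranged from 48.7 to 60.9 CPM (median 56.1) and tumors from 59.9 to 71.9 CPM (median 64.8). The rise was small, and 4 of 6 tumors lay above all benign samples. Means were 55.1 ± 5.51 CPM and 65.2 ± 4.73 CPM (SD), a log2 fold change of 0.24 (95% interval 0.04 to 0.44, adjusted p = 0.039 by edgeR). All 6 tumors were above benign 1, 2 and 5 (59.7, 48.7 and 53.1 CPM), with a log2 fold change of 0.32 (95% interval 0.09 to 0.56, adjusted p = 0.029). Its transactivating partners Gabpb1 (log2 fold change 0.37, adjusted p = 0.047 by edgeR) and Gabpb2 (0.87, adjusted p = 0.0038) rose too, Gabpb2 from 37.8 to 84.9 CPM in benign tissue to 64.3 to 132 CPM in tumors. With benign 1, 2 and 5 Gabpb2 was still called (0.65, adjusted p = 0.046) and Gabpb1 was not (0.29, adjusted p = 0.11).

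The sites that these 2 factors read were looked for in RefSeq promoter windows of GRCm38 (mm10), 300 bases long with 250 before and 50 after each start, to show which members carry them. The letters were GCGCANGCG for NRF1 and CCGGAAG for the ETS family to which GABP belongs, on both strands. NRF1 letters stood in 3 of 9 members with a window and in 6.25% of 32851 windows, and ETS letters in 4 of 9 members and 8.86% of windows. Either stood in 6 of 9 members, beside 13.9% of windows. A member counted if any of its windows matched, while the background is a share of single windows. The members with a match had 1 window each. Below, 30 bases around each match are given 5′ to 3′ on the strand of the gene, with the matched letters in capitals.
Esrra, NRF1 letters, chr19:6921931-6921960, upstream of the annotated exons: cacaggaggccGCGCACGCGtgtgtatcga
Gabpa, ETS letters on the other strand, chr16:84835019-84835048, overlapping an exon: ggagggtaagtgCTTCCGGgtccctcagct
Tfam, ETS letters, chr10:71238074-71238103, overlapping an exon: tcctgccgcggaCCGGAAGtccgggcttcc
Tfb2m, NRF1 letters on the other strand, chr1:179546246-179546275, overlapping an exon: gctaggtcgttCGCATGCGCcattcgtaat
Polrmt, ETS letters on the other strand, chr10:79746607-79746636, upstream of the annotated exons: accctaagagcgCTTCCGGcagtcgcagaa
Polrmt, NRF1 letters on the other strand, chr10:79746568-79746597, overlapping an exon: cctgcaggcggCGCGTGCGCgtgcgcactg
Polg, ETS letters, chr7:79466294-79466323, overlapping an exon: ggaggacctcacCCGGAAGtccctctgcac
In Polrmt a second NRF1 match overlaps the one shown. Ppargc1a, Esrrg and Nrf1 had neither, and no member window held the letters TNAAGGTCA of the estrogen-related receptors (1.28% of windows) or TGACGTCA of CREB (1.79%). The 4 members whose windows hold ETS letters were Gabpa, which rose, Polrmt and Polg, which fell, and Tfam, which did not pass the test. A match of letters is a description of the sequence and does not show binding.

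Tfam encodes the high-mobility-group protein that packages mitochondrial DNA and opens its promoters, at chr10:71225464-71238280 on the minus strand. Benign tissue ranged from 35.2 to 58.8 CPM (median 48.3) and tumors from 41.0 to 49.6 CPM (median 45.4), so every tumor lay inside the benign range. The log2 fold change was -0.07 (95% interval -0.32 to 0.19, adjusted p = 0.66 by edgeR) against all benign samples. Against benign 1, 2 and 5, which held 46.7, 35.2 and 42.5 CPM, it was 0.17 (95% interval -0.09 to 0.42, adjusted p = 0.26). The upper ends of both intervals lie below the log2 fold changes of Ppargc1a and Esrrg.

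Tfb2m, the transcription factor that melts the mitochondrial promoter for the polymerase, lies at chr1:179528055-179546267 on the minus strand. It fell in every tumor, with 30.3 to 39.4 CPM (median 33.2) against 39.9 to 92.1 CPM (median 51.6) in benign tissue. The highest benign levels were those of benign 3, 4 and 6, at 57.1, 92.1 and 76.7 CPM, while benign 1, 2 and 5 were at 46.1, 39.9 and 41.2 CPM. Its log2 fold change was -0.78 (95% interval -1.22 to -0.35, adjusted p = 0.0051 by edgeR) with all benign samples but -0.27 (95% interval -0.52 to -0.02, adjusted p = 0.071) with benign 1, 2 and 5. The latter call was lost when any of 7 of the 9 samples was left out (adjusted p up to 0.19). Tfb1m, its paralog and the methyltransferase of the mitochondrial ribosome, did not pass the test (log2 fold change -0.14, adjusted p = 0.50).

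Polrmt encodes the mitochondrial RNA polymerase, at chr10:79736123-79746581 on the minus strand. Its benign levels were 41.7, 37.6, 47.8, 53.8, 37.0 and 48.3 CPM in benign 1 to 6, and tumors lay between 28.5 and 41.3 CPM with a median of 36.6. Only 3 of 6 tumors were below all benign samples. The log2 fold change of -0.28 (95% interval -0.55 to -0.01, adjusted p = 0.077 by edgeR) passed the threshold narrowly, and the call was lost in 16 of 19 other settings. With benign 1, 2 and 5 it was -0.04 (95% interval -0.34 to 0.26, adjusted p = 0.82).

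Polg, the catalytic subunit of the only DNA polymerase that replicates the mitochondrial genome, lies at chr7:79446231-79466362 on the minus strand and overlaps Fanci on the other. Benign samples ranged from 75.1 to 102 CPM (median 85.6), with muscle-rich and muscle-poor samples mixed, and tumors from 59.6 to 79.1 CPM (median 71.4). In 5 of 6 tumors the level was below all benign samples. Its log2 fold change was -0.31 (95% interval -0.54 to -0.07, adjusted p = 0.027 by edgeR), and -0.23 (95% interval -0.49 to 0.03, adjusted p = 0.13) against benign 1, 2 and 5. The call against all 6 benign samples was lost without benign 1, tumor 1 or tumor 4 (adjusted p 0.12, 0.14 and 0.11) and when counts were scaled by library totals (0.11). Polg2, the accessory subunit, moved the other way, with a log2 fold change of 0.47 (adjusted p = 0.057 by edgeR), but it was not called with benign 1, 2 and 5 (0.41, adjusted p = 0.20).

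**Figure D3:**
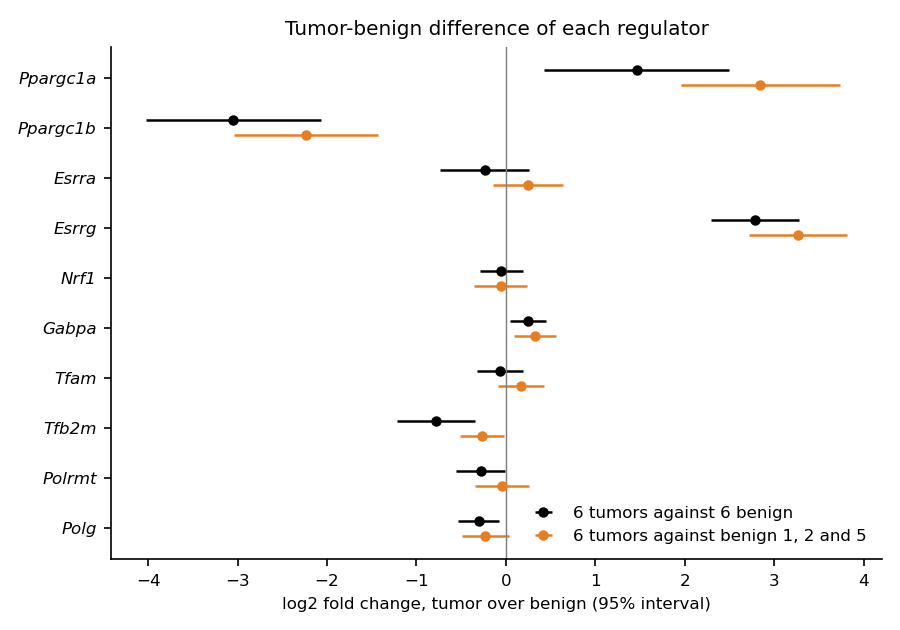
Log2 fold change of each regulator, tumor over benign, with 95% intervals from edgeR, in black against 6 benign samples and in orange against benign 1, 2 and 5. Ppargc1a, Esrrg and Gabpa lie above 0 and Ppargc1b and Tfb2m below 0 in both comparisons, while the orange intervals of Polrmt and Polg cross 0.

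Per kb of transcript, the order of mean levels in benign tissue was Esrra (36.1), Tfb2m (24.0), Polrmt (11.8), Tfam (11.3), Polg (11.1), Gabpa (11), Nrf1 (8.55), Ppargc1b (3.02), Ppargc1a (2.15) and Esrrg (1.38 CPM per kb). The 4 neighbours from Polrmt to Gabpa differed by less than their SDs, which ran from 1.11 to 1.91. In tumors Esrra (30.6) and Tfb2m (13.9) stayed at the head, Gabpa (13.1) came next, and Esrrg moved from last to the sixth place with 9.48 CPM per kb. Ppargc1b was last with 0.36 ± 0.11 CPM per kb.

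The SD of log2 CPM, given with no test, was smaller among tumors than among the 6 benign samples in all 10 members. For Nrf1 the 2 values were nearly equal, at 0.152 and 0.156. The share of all genes for which this held was not counted, so it is not read as a trait of the members. The 6 benign samples also mix muscle-rich and muscle-poor tissue. Among benign 1, 2 and 5 alone, the SD was smaller than among tumors in 6 of 10 members. Examples are Esrra with 0.05 against 0.29 and Polrmt with 0.09 against 0.20. That SD was 0.10 for Tfam and 0.10 for Gabpa in tumors, at the 5.48 and 5.52 percentiles of all genes tested, and 0.13 for Tfb2m and Polg. Ppargc1a was the most variable member in both groups, with 0.59 in tumors (percentile 82.5) and 1.15 in benign tissue (percentile 94.6). Tfb2m ranked at percentile 11 in tumors but 72.2 in benign tissue. Its SD there was 0.50.

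As a description over the 12 samples, which share the split into tumor and benign, the genes with the log2 CPM profile most like each member were listed by Pearson correlation. Tfb2m was most like Ndufs3, a complex I subunit (r = 0.996). Ppargc1b was most like Cpt2, a carnitine palmitoyltransferase of fat oxidation (r = 0.984), and 1700037H04Rik (r = 0.98). Esrra followed Atp5j2, an ATP synthase subunit (r = 0.954), and Abcb8, a mitochondrial transporter (r = 0.951). Polrmt followed Sephs2, a selenophosphate synthetase, and Dap3, a protein of the mitochondrial ribosome (r = 0.932 for each). No such respiratory gene led for the members that rose, nor for Polg, which fell. The genes just named were all lower in tumors, so the split into tumor and benign by itself works against their leading for a member that rose. No contrast between members that rose and fell is drawn from this. Ppargc1a was most like Herpud1, a gene of the endoplasmic reticulum stress response (r = 0.957), and Fbxo3 (r = 0.955), Esrrg like Kif16b, an endosomal kinesin (r = 0.991), and Chl1, a cell adhesion molecule (r = 0.986), and Gabpa like Zbtb43 (r = 0.90) and Gosr1 (r = 0.899). For Nrf1 the closest were Eif3e (r = 0.824) and Tgif2 (r = 0.802), for Tfam Bin1 (r = 0.879) and Vezf1 (r = 0.859), and for Polg Crebl2 (r = 0.936) and Lrrc8a (r = 0.923).

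Among 27 partners and upstream regulators of the coactivators and receptors, 7 were called higher (28.2% of genes were), 9 lower (34.8%) and 11 not. The median log2 fold change was -0.21, and both shares lay near those of all genes tested. Hcfc1, a host cell factor that binds the coactivators, rose from 101 to 156 CPM in benign tissue to 170 to 215 CPM in tumors, which is 0.68 on the log2 scale (adjusted p = 0.00042 by edgeR). Ppp3ca, the calcineurin catalytic subunit, rose by 0.74 on the log2 scale (adjusted p = 0.0083). Pparg, the adipocyte receptor that PGC-1α was found through, fell from 141 to 268 CPM to 0.138 to 2.09 CPM (log2 fold change -7.43, adjusted p = 1.0e-08), alongside the adipocyte markers, all 10 of which were called lower. Mef2c, a muscle and endothelial transcription factor that acts on Ppargc1a, fell from 30.2 to 304 CPM to 7.02 to 10.7 CPM (log2 fold change -3.64, adjusted p = 7.4e-05), and by 2.13 on the log2 scale (adjusted p = 3.4e-05) against benign 1, 2 and 5. With benign 1, 2 and 5 the counts were 8 higher (26.7% of genes were) and 6 lower (28.7%), with a median of 0.17.

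Perm1 and Prkaa2 were singled out from this list after their values were seen. Perm1, a muscle partner of PGC-1 and the estrogen-related receptors, was 1.48, 1.43 and 0.999 CPM in benign 1, 2 and 5, 63.2, 46.5 and 92.5 CPM in benign 3, 4 and 6, and 2.30 to 5.80 CPM in tumors. It was called lower with all benign samples (log2 fold change -3.26, adjusted p = 0.015 by edgeR) and higher with benign 1, 2 and 5 (1.48, adjusted p = 0.012). Prkaa2, the AMPK catalytic subunit α2, went from no call (-0.09, adjusted p = 0.90) to a rise of 1.81 on the log2 scale (adjusted p = 0.0001). It was 11.9 to 16.6 CPM in benign 1, 2 and 5, 59.9 to 140 CPM in benign 3, 4 and 6, and 39.4 to 64.3 CPM in tumors. Benign 1, 2 and 5 were picked for low muscle transcripts, so low levels there of genes that follow muscle content are built into that choice. The change between the 2 comparisons is therefore not read as a result on Perm1 or Prkaa2. Pprc1, the remaining PGC-1 family member, was not called in either comparison (-0.42, adjusted p = 0.13, and -0.23, adjusted p = 0.26).

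Of 30 further genes that express or maintain mitochondrial DNA, 8 were called higher (28.2% of genes were), 10 lower (34.8%) and 12 not. Their median was -0.02, and both shares lay near those of all genes tested. Lig3, the DNA ligase that mitochondria depend on and that nuclear repair also uses, was 31.0 to 71.0 CPM in benign tissue and 186 to 305 CPM in tumors, with no overlap (log2 fold change 2.14, adjusted p = 2.6e-06 by edgeR, and 1.97 against benign 1, 2 and 5). Slc25a36, a pyrimidine nucleotide carrier, rose from 63.1 to 104 CPM to 138 to 175 CPM (0.91, adjusted p = 7.3e-05), and Primpol, a primase-polymerase, by 0.86 on the log2 scale (adjusted p = 0.0069). Endog, a mitochondrial nuclease, fell from 12.4 to 39.5 CPM to 6.98 to 11.4 CPM (-1.41, adjusted p = 0.001, and -0.73, adjusted p = 0.011, against benign 1, 2 and 5). Slc25a33, a second pyrimidine nucleotide carrier, fell by 1.22 on the log2 scale (adjusted p = 0.0046), and by 0.58 (adjusted p = 0.083) against benign 1, 2 and 5. Lrpprc, which stabilizes mitochondrial messenger RNA, fell by 0.77 (adjusted p = 0.0038) but was not called against benign 1, 2 and 5 (-0.25, adjusted p = 0.11). With those 3 samples 7 genes of this list were higher (26.7% of all genes were), 3 were lower (28.7%) and 20 were not called. The median was then 0.05.

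Textbook targets of the program fell almost throughout, 17 of 18 with all benign samples (34.8% of genes did), and 1 rose (28.2%), with a median of -2.04. With benign 1, 2 and 5 the targets were 12 lower (28.7% of genes were), 1 higher (26.7%) and 5 not called, with a median of -1.29. Pdk4, the pyruvate dehydrogenase kinase that PGC-1α and the receptors induce, fell from 50.6 to 650 CPM to 0.675 to 2.43 CPM (log2 fold change -7.26, adjusted p = 1.4e-05 by edgeR), and by 5.55 on the log2 scale (adjusted p = 1.7e-06) against benign 1, 2 and 5. Ucp3, the muscle and brown fat uncoupling protein, was 24.0 to 103 CPM in benign tissue, and 4 counts in all were found in the 6 tumors, so at a floor of 3 counts per library it was at least 140-fold lower, and at least 72-fold lower against benign 1, 2 and 5. Ucp1, the brown fat uncoupling protein, was 0 in 5 of 6 tumors and 6.91 CPM in tumor 5, while benign tissue ran from 0 to 1434 CPM, and against benign 1, 2 and 5 it was not called (adjusted p = 0.39). Fndc5, the exception, rose by 0.96 on the log2 scale (adjusted p = 0.091), and by 2.07 (adjusted p = 0.0067) against benign 1, 2 and 5. The targets fell in the samples in which Ppargc1a and Esrrg rose, and adipocyte and stromal markers fell in the same samples.

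**Figure D4:**
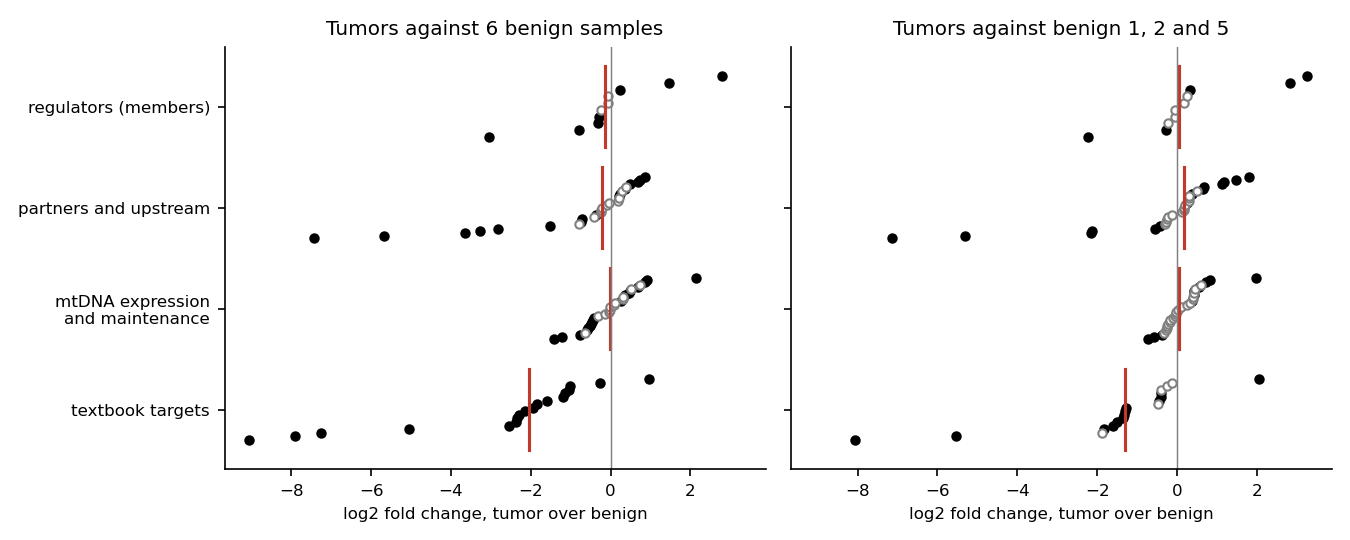
Log2 fold change of each gene of the regulators and the 3 other lists, tumor over benign, against 6 benign samples (left) and against benign 1, 2 and 5 (right), with filled points for called genes, open points for others and red lines at the medians. The median of the textbook targets is -2.04 on the left and -1.29 on the right, and the other medians lie within 0.21 of 0.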

How the data were processed

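RNA of 6 tumors and 6 benign mammary samples was analysed, each grouped by its title. The authors extracted RNA with TRIzol and RNeasy kits, enriched poly A RNA, made stranded libraries and sequenced paired reads. Their notes name Trim Galore, Salmon, DESeq2 and the build mm10, without a role for each. Annotation and versions are not given in the sources used here. The authors deposited Salmon's estimated counts for each gene and sample, as unscaled whole numbers, and every gene sums to 5 or more. Columns without a sample numbered 0. Mitochondrially encoded transcripts were not analysed here.

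Genes were filtered with filterByExpr of edgeR 4.0.16 (a minimum count of 10 and a minimum total of 15). TMM scaling followed, and groups were compared by the two-sided quasi-likelihood test in R 4.3.3, with Benjamini-Hochberg adjustment over all genes tested and a threshold of 0.1. The script was tested on simulated data. The refit with benign 1, 2 and 5 used the same steps. Log2 CPM used 2 added counts. Levels per kb used the longest coding transcript of GENCODE M21 (GRCm38), which also gave coordinates, and promoter windows are from RefSeq (GRCm38). Exact permutation tests ran in SciPy 1.17.1. Total counts of 5240853 to 8588567 make 1 count worth 0.11 to 0.185 CPM. P-values measure the spread between these samples, and it is not stated that each sample of a group came from a different mouse. Replicates differed beyond sampling noise (chi-square per degree of freedom at least 12.5).

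The members and gene lists were chosen with earlier results of these data known. Named beyond the members were, from each other list, the 3 called genes that rose most and the 3 that fell most, given 5 CPM or more in the higher group, the 2 genes most like each member (1 of which is not reported here), and Ckm, Ucp1, Adipoq and Krt8. Gabpb1, Tfb1m, Polg2, Perm1, Prkaa2, Pprc1, Krt5, Krt14 and Krt19 were chosen after their values were seen. Alternatives were DESeq2 1.42.0, upper-quartile scaling, library totals, 2 other filters, an adjusted p of 0.05, a replicate block, each sample left out in turn, and benign 1, 2 and 5 alone. For the fit against benign 1, 2 and 5, DESeq2 and leaving out each sample were added after seeing the data.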

Additional observations from a re-analysis of the deposited data

Results flagged for a closer look

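Esrra in tumor 1 stood apart from the other tumors. It was at 98.7 CPM while the other 5 tumors lay between 57.0 and 68.1 CPM, a gap that took up 0.677 of the whole range on the log2 scale. Of 20 groups of 6 samples examined for such a gap (10 members in tumors and in benign tissue), 1 was marked, and chance marks about 1 in 20. Without tumor 1 Esrra was still not called.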

How the results depend on the processing

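Ppargc1a, Ppargc1b, Esrrg, Gabpa and Tfb2m kept their direction and their call against all 6 benign samples in every alternative that could be fitted (18 for Ppargc1b, which a filter of 10 counts in every sample removes, and 19 for each of the others). Leaving out each sample gave 1.27 to 1.86 for Ppargc1a (adjusted p 0.0044 to 0.038), -3.21 to -2.55 for Ppargc1b, 2.66 to 2.91 for Esrrg, 0.211 to 0.333 for Gabpa and -0.869 to -0.611 for Tfb2m. The number of members called lower was 2 in place of 4 with library totals, with 10 counts required in every sample, with benign 1, 2 and 5 alone, and without benign 1, tumor 1 or tumor 4 (range 2 to 4 when each sample was left out). Against benign 1, 2 and 5 it was 1 to 2, with Tfb2m losing its call without any of benign 1, 2 and 5 or tumors 2, 3, 4 and 6, and Gabpa losing its call without benign 2 (adjusted p = 0.12). The list of mitochondrial DNA genes had 3 called lower in place of 10 with benign 1, 2 and 5.

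Within each comparison, directions turned only in members without a call in that comparison. Esrra was 0.249 with benign 1, 2 and 5. Nrf1 was 0.0296 with library totals, 0.0315 with a filter of 1 count in total, and -0.0928 to 0.0545 when each sample was left out. Tfam was 0.0412, 0.0233, 0.167 with benign 1, 2 and 5, and -0.0954 to 0.0279. Against benign 1, 2 and 5, leaving out each sample gave -0.136 to 0.0235 for Nrf1 and -0.0906 to 0.0227 for Polrmt. The library to which TMM scales moved with the samples and filter. It was benign 2 in the fit of all samples, and in the 8 leave-one-out fits that scaled to benign 5 or tumor 3 the median of all genes shifted by 0.0427 to 0.0741, about the size of these values. Library totals shifted it by 0.0888 and took the share of calls that were higher from 44.7% to 49.7%.

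Tumors and benign samples came from different mice, so the numbers do not pair them. Same-numbered samples correlated at -0.124 to 0.103. Pairs with different numbers were not examined, so these values cannot by themselves test a pairing. With the replicate block 3 members were higher and 4 lower, as without it, and 3473 genes were higher and 4237 lower in place of 3720 and 4594. Depth limits Ppargc1b most, with 5 to 14 counts per tumor.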
